A study of Mus musculus with 3 samples.

Results

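The collagen genes of the mouse were followed here through 3 liver transcriptomes, from a mouse model of non-alcoholic steatohepatitis (NASH), the fatty liver disease in which inflammation and scarring accompany fat accumulation. Members were all protein-coding genes of the deposited table whose symbol names a collagen alpha chain (Col, a type number, a, a chain number). This gave 44 of the 35275 genes listed, 22026 of them protein-coding. The choice used names only, not expression. By the structure of the protein, 11 members are fibrillar collagens, 6 are basement membrane collagens (the chains of type IV) and 27 belong to other kinds.

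The libraries are called control, NASH and TH-treated NASH. All came from the liver of male C57BL/6J mice, aged 10 weeks when the diets began. Control mice ate normal chow, without hormone. NASH mice ate a western diet with liquid fructose (WDF), and their label names 24 weeks. TH-treated NASH mice had 16 weeks of the same diet and then 8 weeks of thyroid hormone, T3 at 35 ng/g and T4 at 7 ng/g, given in drinking water with 15% fructose. Each group is 1 library, which may be 1 animal or a pool, since the labels give no number of mice. No difference below therefore has a replicate check, and no p-value is given. Intervals are exact 95% intervals for the counting of fragments, and they cover neither differences between animals nor duplicate molecules from PCR.

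Collagens are extracellular proteins built of 3 chains that wind into a triple helix, which requires glycine at the first position of each Gly-X-Y triplet. Fibrillar collagens such as types I and III form the rope-like fibrils of scar tissue, and type IV forms the sheet of basement membranes. Others decorate fibrils, form beaded filaments, or release signalling fragments. In an injured liver, hepatic stellate cells and portal fibroblasts are known as the main makers of fibril collagen.

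The fibrillar class is set apart in the coding sequences themselves, and for that reason 3 stretches from fibrillar and basement membrane genes are shown. The coding sequence of the longest transcript of each member in GENCODE M21 was read for runs of codons in which glycine (any GGN codon) occupied 1 codon in 3 without a break. Capitals mark GGN codons that belong to an uninterrupted run of at least 5 triplets. The first pair are codons 168 to 197 of Col1a1 and 164 to 193 of Col3a1, where the long helix of each begins. The third stretch is codons 1338 to 1367 of Col4a1, centred on the end of its longest run. All are written 5′ to 3′ on the coding strand.
Col1a1: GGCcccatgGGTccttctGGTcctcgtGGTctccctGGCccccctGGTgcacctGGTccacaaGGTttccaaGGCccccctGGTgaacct
Col3a1: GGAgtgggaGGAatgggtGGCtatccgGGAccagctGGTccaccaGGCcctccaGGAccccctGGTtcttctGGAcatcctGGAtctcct
Col4a1: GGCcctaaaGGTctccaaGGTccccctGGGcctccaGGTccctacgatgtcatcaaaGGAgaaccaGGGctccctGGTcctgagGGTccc

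In Col1a1 and Col3a1 the capital codon returns at a fixed spacing through the whole stretch. In Col4a1 the pattern stops, skips a few codons and resumes. Over all members, the longest run held 216 to 344 triplets in the 11 fibrillar genes (median 338). It held 39 to 66 in the 6 basement membrane genes (median 43.5) and 23 to 113 in the 27 others (median 45). Fibrillar genes had 2 to 3 runs of at least 5 triplets, basement membrane genes 16 to 24 and the others 2 to 17. Both measures overlap between the basement membrane genes and the others. Among the fibrillar genes, Col27a1 with 217 triplets and Col24a1 with 216 had shorter main runs than the rest. Col27a1 also differed from the type I and III genes in expression, as described below, but so did Col5a3, whose longest run held 337 triplets. A link between run length and expression was not tested.

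**Figure D1:**
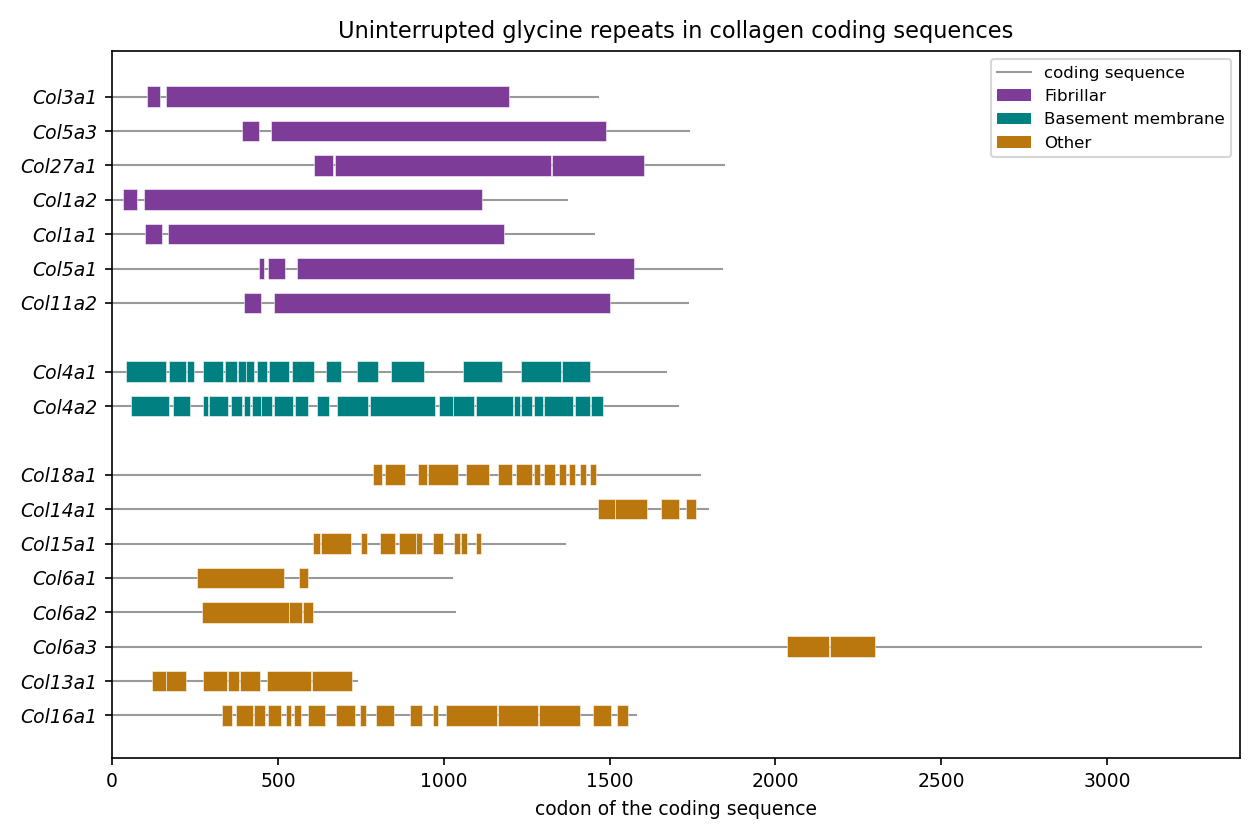
Uninterrupted glycine repeats along the coding sequences of the 17 collagen genes that reached 1 FPKM in any library. The horizontal axis is the codon position, each grey line is a coding sequence and each coloured block is a run of at least 5 triplets, coloured by class. Most fibrillar genes carry 1 long block, while Col4a1 with 16 runs and Col4a2 with 22 are divided throughout.

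The libraries held 54576236 (control), 47009255 (NASH) and 38303410 (TH-treated NASH) fragments assigned to genes, of which 73589, 68865 and 36744 fell on collagen genes. Levels are FPKM, fragments per kilobase of gene model scaled to the fragments of the library, which permits comparison between genes of different length. For a gene of 5 kb, 3 fragments correspond to 0.0110, 0.0128 and 0.0157 FPKM in the same order. The 8 hepatocyte markers summed to 57926, 39662 and 36196 FPKM, with 3 lower and none higher in NASH than in control, and 2 lower and 1 higher in TH-treated NASH than in NASH. Markers of muscle, cartilage and skin were near 0 in each library: none of 7 reached 1 FPKM, and Ckm, Myh4, Acan, Matn3 and Krt5 had no fragment.

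Of the 44 members, 17 reached 1 FPKM in at least 1 library and are described first. They were 7 of the 11 fibrillar genes, 2 of the 6 basement membrane genes and 8 of the 27 others. Another 20 had fragments but stayed below 1 FPKM, and 7 had none in any library. The members just inside the limit by their highest level were Col16a1 at 1.26 FPKM, Col11a2 at 1.41 FPKM and Col13a1 at 1.63 FPKM. Just outside it were Col5a2 at 0.899 FPKM, Col20a1 at 0.810 FPKM and Col9a3 at 0.497 FPKM. A member that entered only through the library where it was high had to differ: Col16a1 passed only in NASH and Col11a2 only in TH-treated NASH, while Col5a1, Col6a2 and Col6a3 were under it in control. The other 12 exceeded 1 FPKM in all 3 libraries.

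**Figure D2:**
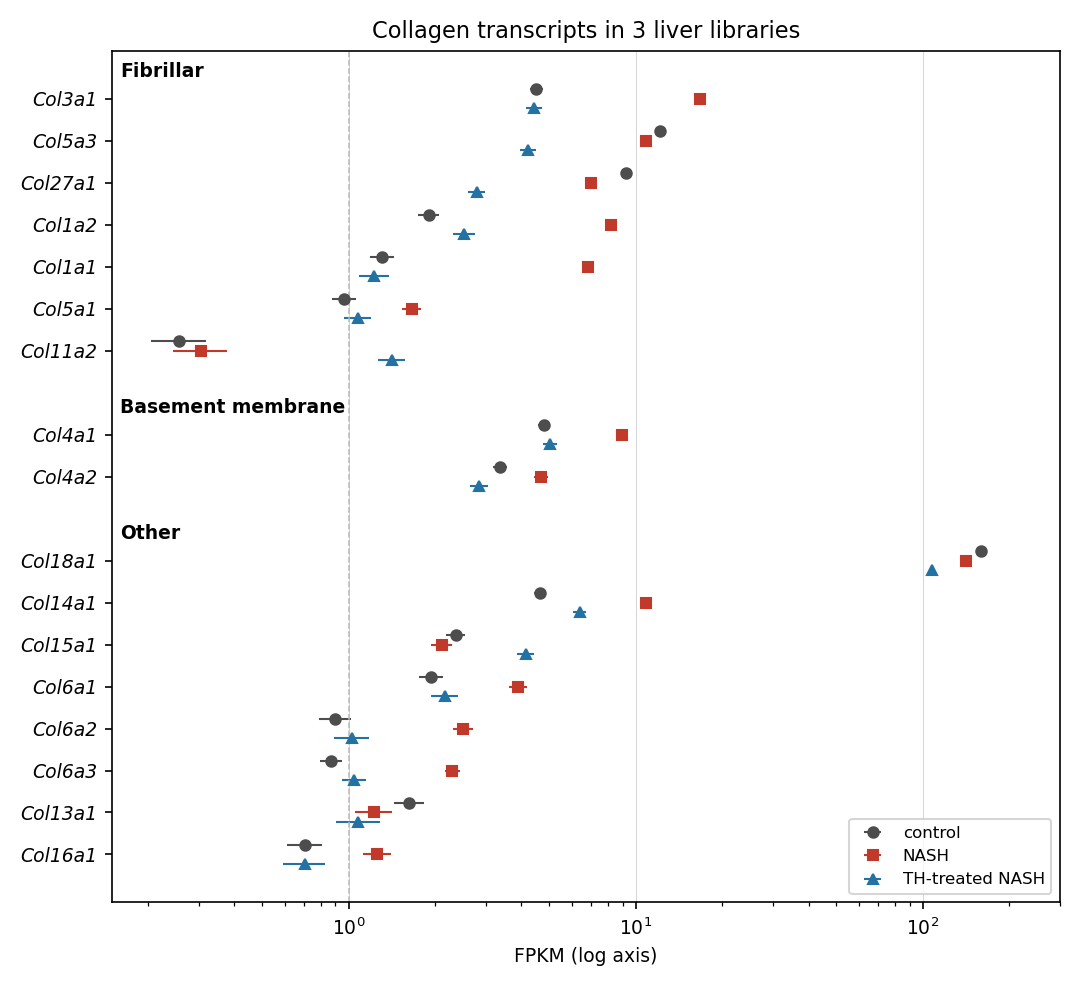
FPKM of the 17 collagen genes that reached 1 FPKM (log axis), with 95% counting intervals as bars. Circles are control, squares NASH and triangles TH-treated NASH, with genes grouped by class. NASH was the highest library for 11 genes, control for 4 and TH-treated NASH for 2.

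The type I and type III genes, which encode the chief fibril collagens of scar, stood high in NASH alone. Col1a1, the alpha-1 chain of type I, was at 1.31 FPKM in control liver, 6.81 in NASH and 1.23 in TH-treated NASH. Col1a2, its partner chain, was at 1.90, 8.24 and 2.52 FPKM. Col3a1, the single chain of type III, was at 4.51, 16.7 and 4.43 FPKM. For each of the 3 genes NASH stood far above the other libraries, which lay close to each other. In a bulk liver sample, more collagen-making cells and more transcript per such cell cannot be told apart.

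As FPKM ratios of NASH over control these were 5.21-fold for Col1a1 (4.68 to 5.80), 4.34-fold for Col1a2 (3.95 to 4.77) and 3.71-fold for Col3a1 (3.49 to 3.95). TH-treated NASH was lower than NASH by 5.54-fold for Col1a1 (4.88 to 6.30), 3.26-fold for Col1a2 (2.96 to 3.60) and 3.77-fold for Col3a1 (3.52 to 4.05). Against control, the TH-treated library had 0.940 times the level of Col1a1 (0.805 to 1.10) and 0.984 times that of Col3a1 (0.905 to 1.07), with intervals that hold 1. Col1a2 was the exception, 1.33-fold above control (1.18 to 1.502). Col1a1 lies on chromosome 11 (94936224 to 94953042), Col1a2 on chromosome 6 (4504814 to 4541543) and Col3a1 on chromosome 1 (45311538 to 45349706), each on the plus strand of GRCm38.

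The 2 chains of type I, which assemble with more alpha-1 than alpha-2 chain in the protein, did not keep a fixed ratio of transcripts. Col1a1 was at 0.688 times the FPKM of Col1a2 in control liver (0.605 to 0.783), 0.826 times in NASH (0.776 to 0.880) and 0.487 times in TH-treated NASH (0.419 to 0.564). The interval of TH-treated NASH lies below the other two, and those of control and NASH overlap slightly. Alpha-2 transcripts thus outnumbered alpha-1 transcripts per length in each library, most of all in TH-treated NASH. Col1a1 relative to Col3a1 was 0.290 in control liver, 0.407 in NASH and 0.277 in TH-treated NASH, where the intervals of control (0.260 to 0.324) and TH-treated NASH (0.242 to 0.317) overlap.

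Type V, which is built into type I fibrils and limits their thickness, divided by chain. Col5a1 was at 0.966 FPKM in control liver, 1.66 in NASH and 1.08 in TH-treated NASH. Col5a2, just below 1 FPKM, was at 0.335, 0.899 and 0.461 FPKM, on 121, 280 and 117 fragments. NASH was the highest library for both, as for the type I genes: Col5a1 was 1.72-fold above control (1.52 to 1.94) and Col5a2 2.69-fold (2.16 to 3.35). Col5a2 lies tail to tail with Col3a1 on chromosome 1, 24615 bases apart.

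Col5a3, the third chain of type V, ran in a different order. It stood at 12.2 FPKM in control liver, 10.8 in NASH and 4.21 in TH-treated NASH. NASH was 1.13-fold below control (1.07 to 1.18), and TH-treated NASH was 2.57-fold below NASH (2.39 to 2.77) and 2.89-fold below control (2.70 to 3.10). Its excess over Col5a1 went from 12.6-fold in control to 6.52-fold in NASH and 3.91-fold in TH-treated NASH, with intervals that do not overlap (11.4 to 13.9, 5.99 to 7.11 and 3.45 to 4.43).

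Col27a1, a fibrillar collagen best known from cartilage, followed the same order as Col5a3. It was at 9.22 FPKM in control liver, 6.97 in NASH and 2.80 in TH-treated NASH. NASH was 1.32-fold below control (1.26 to 1.39), and TH-treated NASH was 2.49-fold below NASH (2.30 to 2.70) and 3.30-fold below control (3.06 to 3.56). Col5a3 and Col27a1 were the most abundant fibrillar transcripts of the control liver, at a sum of 21.4 FPKM against 7.71 for types I and III. In NASH the sums were 17.8 and 31.8 FPKM, and in TH-treated NASH 7.01 and 8.19. The sum over all fibrillar genes was 30.7 FPKM in control liver, 52.5 in NASH and 18.2 in TH-treated NASH. TH-treated NASH was lower than NASH in both sets, and lower than control in the Col5a3 and Col27a1 set.

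Col11a2, a chain of type XI that accompanies type II in cartilage, was the 1 fibrillar gene of at least 1 FPKM that stood highest in TH-treated NASH. It was at 0.258 FPKM in control liver, 0.306 in NASH and 1.41 in TH-treated NASH, on 85, 87 and 327 fragments. That is 4.61-fold above NASH (3.63 to 5.91), while NASH and control were not separable at this depth (1.19-fold, 0.871 to 1.62). Col2a1 and Col11a1, the chains that assemble with it in cartilage, had no fragment in any library. The cartilage marker genes Acan and Matn3 also had none. Col24a1, a fibrillar gene far below 1 FPKM, was highest in TH-treated NASH as well, at 0.0205, 0.0298 and 0.0914 FPKM on 8, 10 and 25 fragments.

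The basement membrane genes were led by Col4a1 and Col4a2, whose products form the heterotrimer of nearly all basement membranes. Col4a1 was at 4.79 FPKM in control liver, 8.96 in NASH and 5.04 in TH-treated NASH, and Col4a2 at 3.36, 4.68 and 2.85 FPKM. NASH was highest for both, by 1.87-fold over control for Col4a1 (1.76 to 1.99) and 1.39-fold for Col4a2 (1.29 to 1.504). TH-treated NASH was lower than NASH by 1.78-fold (1.66 to 1.90) and 1.64-fold (1.499 to 1.80). Against control it was not separable for Col4a1 (1.05-fold, 0.977 to 1.13) and was 1.18-fold lower for Col4a2 (1.07 to 1.30).

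The 2 genes lie head to head on chromosome 8, Col4a1 from 11198423 to 11312826 on the minus strand and Col4a2 from 11312805 to 11449287 on the plus strand, with overlapping starts. Reads of that overlap can be assigned to a strand only if the library marks it, and no source used here states the strand setting of the counting. The ratio of Col4a1 to Col4a2 was not constant, at 1.42 in control liver (1.32 to 1.54), 1.91 in NASH (1.79 to 2.04) and 1.77 in TH-treated NASH (1.61 to 1.94).

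Sites from the start regions of Col1a2, Col4a1 and Col4a2 are shown because each holds the letters of a CCAAT box, a promoter element that nuclear factor Y is known to bind. Sequences are 25 bases of RefSeq promoter windows (GRCm38.p6, 250 bases before to 50 after a start), read 5′ to 3′ on the strand of the gene, with CCAAT or its reverse complement ATTGG in capitals. They lie at chr6:4505499-4505523 (Col1a2, plus strand), chr8:11312957-11312981 (Col4a1, minus strand) and chr8:11312763-11312787 (Col4a2, plus strand), the last pair each inside the annotated span of the opposite gene. The Col1a2 site lies inside the annotated span of Col1a2 itself, 109 bases before a RefSeq start. A second Col1a2 match, ATTGG within chr6:4505608-4505632, begins at that start and is not shown.
Col1a2: aagaatggaaCCAATttaagaagcc
Col4a1: cttgcccgggATTGGcgagccaagg
Col4a2: gaggagctccCCAATttgttggcgc

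Windows were found for 35 of the 44 members. These members had 38 windows, of which 13 held CCAAT or ATTGG on either strand (34.2%), against 37.4% of all 32851 windows. Of the 15 members with a window that reached 1 FPKM, 6 held it: Col1a2, Col4a1, Col4a2, Col5a3, Col16a1 and Col18a1. These include genes highest in NASH and genes highest in control. A match is a run of letters and not evidence of binding.

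The remaining type IV genes, known for the basement membranes of kidney and other specialised tissues, were all below 1 FPKM. Col4a5 was at 0.0981 FPKM in control liver, 0.316 in NASH and 0.128 in TH-treated NASH, in order like Col4a1, with NASH 3.22-fold above control (2.17 to 4.88). Col4a3 was at 0.0557, 0.0398 and 0.296 FPKM on 26, 16 and 97 fragments, 7.44-fold higher in TH-treated NASH than in NASH (4.36 to 13.5). Col4a4, whose start lies 72 bases from that of Col4a3 on the opposite strand, was at 0.0526, 0.0737 and 0.114 FPKM, and its interval for the same comparison holds 1 (1.54-fold, 0.967 to 2.48). Col4a3 is overlapped by another listed gene, C430014B12Rik, which reached 0.537 FPKM, and reads of the 2 genes may not be separable.

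Col18a1 exceeded every other collagen gene in each library. Type XVIII is a basement membrane proteoglycan of the multiplexin group, known as the precursor of endostatin and as a product of hepatocytes. It was at 159.9 FPKM in control liver, 142 in NASH and 107 in TH-treated NASH. It took 75.1% of collagen fragments in control liver (74.8 to 75.5, exact binomial), 61.4% in NASH (60.99 to 61.7) and 70.9% in TH-treated NASH (70.4 to 71.3). NASH was 1.13-fold below control (1.11 to 1.14), and TH-treated NASH 1.32-fold below NASH (1.30 to 1.34) and 1.49-fold below control (1.47 to 1.51).

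Its order, control highest and TH-treated NASH lowest, is that of Col5a3 and Col27a1. The hepatocyte markers Alb (32685, 20265 and 14907 FPKM) and Ttr (5210.3, 4219 and 2743 FPKM) ran in this order too, while Apoa1, Fgb, Cps1 and Hnf4a were lowest in NASH. Cyp2e1 was at least 1.5-fold lower in TH-treated NASH than in NASH, the largest difference of the 8 markers there. Serpina1c was less than 1.5-fold apart in that comparison. The part of hepatocyte content in the level of Col18a1 was not tested. Col18a1 made up most of the total over all collagens, which was 213 FPKM in control liver, 234 in NASH and 153 in TH-treated NASH. That total was 1.10-fold higher in NASH than in control, with Col18a1 at 0.887 times its control level and the sum of the other members 1.73-fold higher.

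Col15a1, the other multiplexin, did not share that order. It was at 2.36 FPKM in control liver, 2.11 in NASH and 4.13 in TH-treated NASH. Control and NASH were not separable (1.12-fold lower in NASH, 0.997 to 1.26), and TH-treated NASH was 1.96-fold above NASH (1.75 to 2.19) and 1.75-fold above control (1.58 to 1.94). On the log2(FPKM + 1) scale the difference from control was 0.61 as deposited, just past the limit of 1.5-fold, and it fell under that limit at 0.54 after scaling to equal totals, 0.48 with median-of-ratios scaling and 0.46 with TMM scaling. Col15a1 and Col11a2 were the members above 1 FPKM that stood highest in TH-treated NASH. Sinusoidal endothelial markers summed to 79.5, 87.9 and 97.2 FPKM in control, NASH and TH-treated NASH, with none of 8 at least 1.5-fold apart in NASH against control or TH-treated NASH against NASH. In TH-treated NASH against control, 2 of the 8 were higher and none lower, beside 15.5% and 6.86% of all genes. The 2 were Stab1 (4.89 and 8.71 FPKM in control and TH-treated NASH) and Lyve1 (1.95 and 4.55 FPKM). In a list of 8, 1 gene moves the share widely. The part of sinusoidal endothelial cells in the level of Col15a1 was not tested.

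Fibril-associated collagens sit on the surface of fibrils. Col14a1, the most abundant of them, was at 4.66 FPKM in control liver, 10.9 in NASH and 6.38 in TH-treated NASH. It was 2.34-fold higher in NASH than in control (2.21 to 2.48), 1.71-fold lower in TH-treated NASH than in NASH (1.61 to 1.81) and still 1.37-fold above control there (1.28 to 1.47). Col16a1 was at 0.704, 1.26 and 0.702 FPKM, so that the TH-treated and control libraries were nearly equal (0.997-fold, 0.798 to 1.24). Col12a1, below 1 FPKM, was at 0.191, 0.392 and 0.386 FPKM. NASH stood 2.05-fold above control for this gene (1.63 to 2.59), as did the type I genes, but TH-treated NASH was at the NASH level (0.984-fold, 0.800 to 1.21).

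Type VI, which forms beaded filaments near cell surfaces, was represented by Col6a1, Col6a2 and Col6a3. Col6a1 was at 1.94 FPKM in control liver, 3.90 in NASH and 2.16 in TH-treated NASH. Col6a2 was at 0.895, 2.50 and 1.03 FPKM, and Col6a3 at 0.868, 2.30 and 1.05 FPKM. All 3 were highest in NASH, by 2.02-fold (1.79 to 2.27), 2.80-fold (2.40 to 3.26) and 2.65-fold (2.38 to 2.96) over control. In TH-treated NASH they were lower than in NASH by 1.81-fold (1.59 to 2.06), 2.44-fold (2.07 to 2.89) and 2.20-fold (1.96 to 2.47). Against control, the intervals hold 1 for Col6a1 and Col6a2, and Col6a3 was 1.20-fold higher (1.05 to 1.38). Col6a1 exceeded Col6a2 by 2.16-fold in control liver, 1.56-fold in NASH and 2.10-fold in TH-treated NASH.

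The other type VI genes are alternatives to Col6a3 in the trimer and lie side by side on chromosome 9. Col6a6 was at 0.138 FPKM in control liver, 0.0678 in NASH and 0.300 in TH-treated NASH, lowest in NASH, where Col6a3 was highest. TH-treated NASH was 4.43-fold above NASH for this gene (2.89 to 6.99). Col6a5 had 1, 37 and 17 fragments, and Col6a4 had none.

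Col13a1, a collagen that spans the cell membrane, was at 1.63 FPKM in control liver, 1.22 in NASH and 1.08 in TH-treated NASH. NASH was 1.33-fold below control (1.10 to 1.61), and TH-treated NASH and NASH were not separable (1.13-fold lower, 0.899 to 1.43). TH-treated NASH was 1.51-fold below control (1.22 to 1.87), but short of the 1.5-fold limit on the log2(FPKM + 1) scale, at −0.34. Another membrane collagen, Col25a1, known from neurons, showed a steeper order at a low level, with 67, 28 and 5 fragments (0.183, 0.0889 and 0.0195 FPKM).

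Of the 20 members below 1 FPKM with fragments, 11 had under 50 in every library and the other 9 reached 50 in at least 1. The highest of them, Col5a2, is given above. Col8a1, a short-chain collagen, was at 0.0969 FPKM in control liver, 0.283 in NASH and 0.302 in TH-treated NASH. Col20a1, a fibril-associated chain, was at 0.341, 0.284 and 0.810 FPKM, and its neighbour Col9a3 on chromosome 2, a chain of cartilage type IX, was at 0.132, 0.175 and 0.497 FPKM. Both were higher in TH-treated NASH than in NASH, by 2.85-fold for Col20a1 (2.07 to 3.97) and 2.85-fold for Col9a3 (1.75 to 4.75). Col20a1 is overlapped by the listed gene 9230112E08Rik, which reached 0.924 FPKM, more than Col20a1 itself, so reads of these genes may not be separable. The other chains of type IX, Col9a1 and Col9a2, had no fragment. The 7 without a fragment were Col2a1, Col6a4, Col9a1, Col9a2, Col11a1, Col19a1 and Col26a1.

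Whether collagen transcripts differed on the diet was addressed by setting NASH against control. Counted from 1.5-fold on the log2(FPKM + 1) scale, 8 of the 17 members were higher in NASH, against 10.3% of the 11835 genes at 1 FPKM or more in any library. They were Col1a1, Col1a2, Col3a1, Col4a1, Col6a1, Col6a2, Col6a3 and Col14a1. None was lower, against 2.53% of all genes. The counting interval of the FPKM ratio lay wholly above 1 for 11 members and wholly below 1 for 4, namely Col5a3, Col27a1, Col13a1 and Col18a1. Among the 12 members above 1 FPKM in all 3 libraries, 6 were higher and none lower.

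By class, 3 of 7 fibrillar, 1 of 2 basement membrane and 4 of 8 other members were higher in NASH. The median log2 difference was 0.44 for fibrillar, 0.58 for basement membrane and 0.57 for other members, beside 0.12 over all genes. These medians and their order depended on the filter. Without it, over all 44 members, they were 0.05, 0.14 and 0, and among the 8 members of at least 5 FPKM they were 1.67, 0.78 and 0.45. The fibrillar median combined members of opposite direction: without Col1a1, Col1a2 and Col3a1 it was −0.05. The basement membrane median rested on 2 genes and was 0.13 with the multiplexins counted in that class.

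Hormone treatment was addressed by setting TH-treated NASH against NASH, both labelled with the western diet. Beyond the fructose water, what was fed in the hormone weeks is not stated in the labels. Counted again on the log2(FPKM + 1) scale, 10 of the 17 members were at least 1.5-fold lower, against 9.02% of all genes. On the same scale 2 were higher, Col11a2 and Col15a1, against 8.42%. Col4a2, Col5a1 and Col16a1 were lower by FPKM ratio (1.64-fold, 1.54-fold and 1.79-fold) but did not reach the limit on this scale. The 10 were the 8 genes that had been higher in NASH, together with Col5a3 and Col27a1. The NASH library enters both comparisons. The interval of the FPKM ratio lay below 1 for 14 members and above 1 for 2, and held 1 for Col13a1. Among members above 1 FPKM in all libraries, 8 of 12 were lower and 1 was higher.

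In the fibrillar class 5 of 7 were lower, with a median log2 difference of −1.18, or −0.71 without Col1a1, Col1a2 and Col3a1. In the basement membrane class 1 of 2 was lower with a median of −0.64. Among other members 4 of 8 were lower with a median of −0.52. The median over all genes was −0.04. Without the filter the class medians were −0.38, −0.10 and −0.01 in the same order, and from 5 FPKM they were −1.39, −0.72 and −0.54.

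TH-treated NASH against control completes the set. Here 2 members were higher, Col11a2 and Col15a1, against 15.5% of all genes, and 2 were lower, Col5a3 and Col27a1, against 6.86%. Each count of 2 is 11.8% of the members, under the first of these shares and above the second. Among the 12 members above 1 FPKM in all libraries, 1 was higher and 2 were lower, since Col11a2 passed the limit only in TH-treated NASH. Intervals of the ratio held 1 for 7 members: Col1a1, Col3a1, Col5a1, Col4a1, Col6a1, Col6a2 and Col16a1. An interval that holds 1 does not show that levels were equal in the animals. The sign of 3 of these depended on scaling: the log2 difference of Col4a1 was 0.06 as deposited and −0.09 with median-of-ratios scaling, that of Col5a1 0.08 and −0.01, and that of Col6a1 0.11 and −0.01. The median log2 difference was −0.02 for fibrillar, −0.06 for basement membrane and 0.10 for other members, beside 0.11 over all genes.

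**Figure D3:**
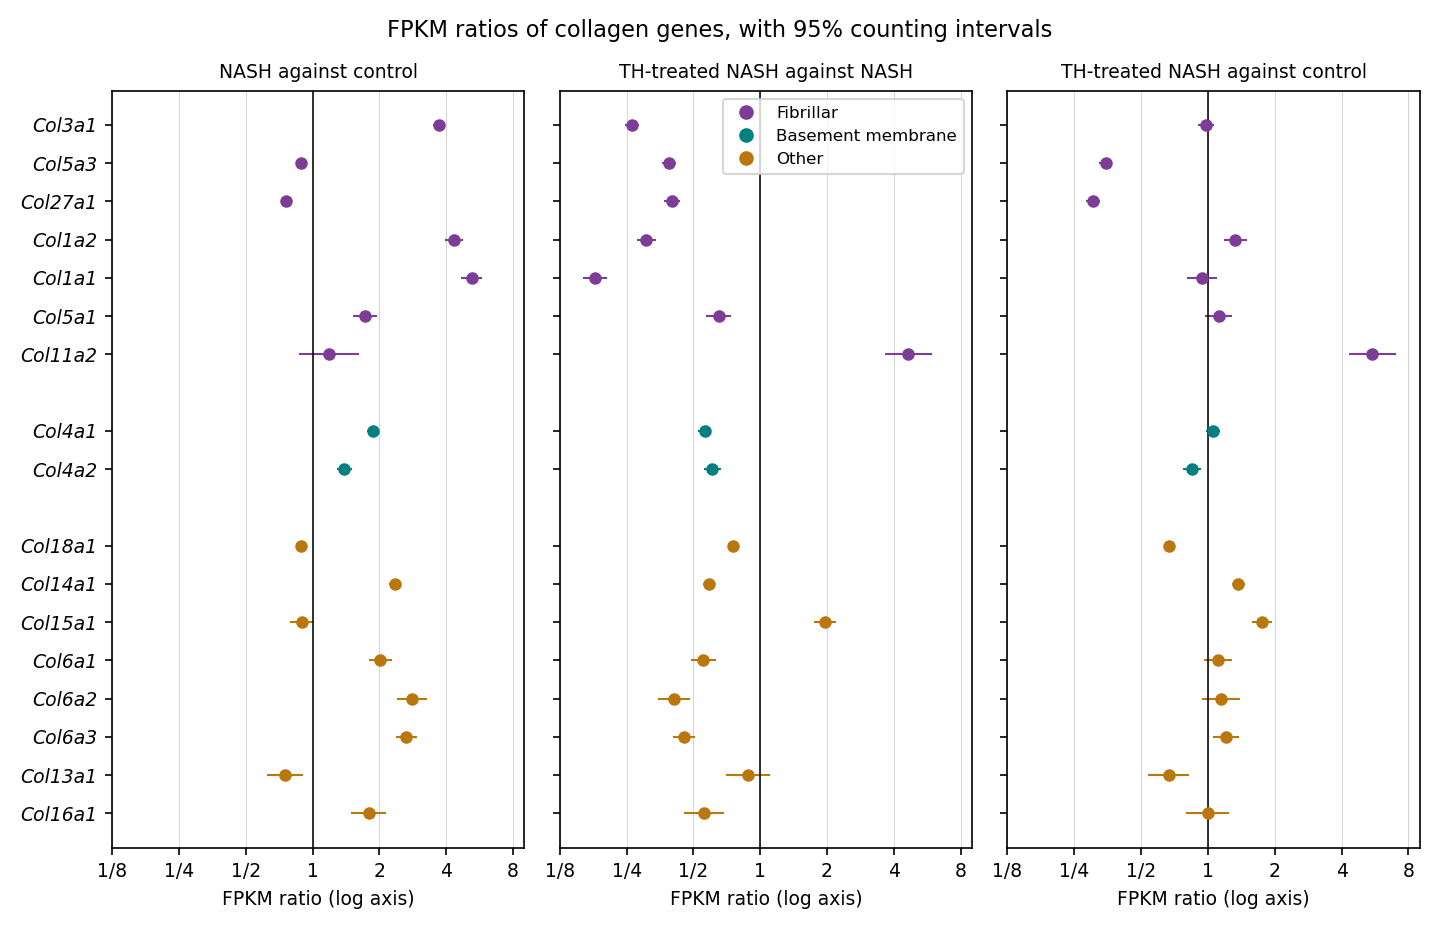
FPKM ratios of the 17 collagen genes for the 3 pairs of libraries (log axis), with 95% counting intervals as bars and colour by class. The type I, III, IV and VI genes lie to the right of 1 in the first panel, to the left in the second and near 1 in the third, where Col5a3 and Col27a1 stay to the left and Col11a2 and Col15a1 to the right. Col18a1 (0.671) and Col13a1 (0.664) also lie to the left of 1 in the third panel, and Col14a1 (1.37) to the right.

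The make-up of collagen transcripts differed between the libraries even where totals were alike. Without Col18a1, the other 43 members summed to 53.4 FPKM in control liver, 92.4 in NASH and 45.7 in TH-treated NASH. Types I and III made up 14.4% of this sum in control liver, 34.4% in NASH and 17.9% in TH-treated NASH. Col5a3 and Col27a1 made up 40.1%, 19.3% and 15.3%. All fibrillar genes together took 57.5% and 56.8% in control and NASH and 39.9% in TH-treated NASH.

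Type IV and the beaded and fibril-associated collagens filled much of the rest. Type IV took 15.7%, 15.2% and 18.5% of the sum without Col18a1, type VI took 7.19%, 9.58% and 10.01%, and fibril-associated genes 11.3%, 14.1% and 19.2%. The TH-treated library thus had type I and III levels close to control in a mixture with less Col5a3 and Col27a1 and more fibril-associated transcript than control had.

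**Figure D4:**
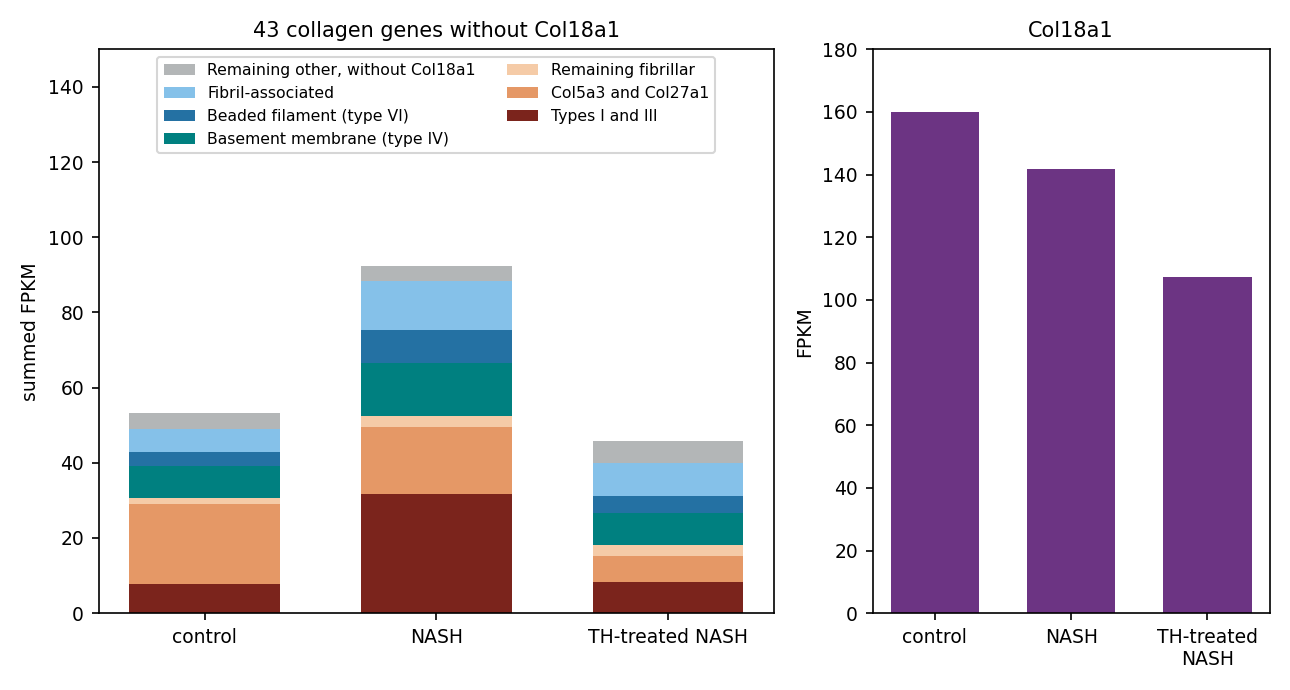
Summed FPKM of the 43 collagen genes other than Col18a1, divided by kind (left), and FPKM of Col18a1 (right), by library. The left bars reach 53.4, 92.4 and 45.7 FPKM, with types I and III at 7.71, 31.8 and 8.19 FPKM and Col5a3 with Col27a1 at 21.4, 17.8 and 7.01 FPKM.

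Genes that act on collagens were counted in the same way, to be read beside the shares of all genes: 10.3% higher and 2.53% lower in NASH than in control, and 8.42% higher and 9.02% lower in TH-treated NASH than in NASH. In lists this short, 1 gene moves the share widely. Of 15 genes of chain modification and folding at 1 FPKM or more, 5 were higher in NASH than in control and none lower, and 1 was lower in TH-treated NASH than in NASH, a smaller share than among all genes. That 1 was Serpinh1, which encodes HSP47, the chaperone dedicated to procollagen. It was at 8.79 FPKM in control liver, 19.5 in NASH and 9.72 in TH-treated NASH. It was 2.22-fold above control in NASH (2.07 to 2.39) and 2.01-fold lower in TH-treated NASH than in NASH (1.86 to 2.17). The prolyl hydroxylase subunit gene P4ha1 (1.65, 3.38 and 2.37 FPKM) and Crtap (2.42, 4.94 and 3.34 FPKM) were also highest in NASH.

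Of 9 genes of secretion and propeptide removal, 2 were higher in NASH than in control, and 3 were higher and 3 lower in TH-treated NASH than in NASH. Adamts2, the protease that removes the amino-terminal propeptide, was at 0.588, 2.04 and 1.08 FPKM. Bmp1, which removes the carboxy-terminal propeptide, ran the other way, at 27.8 FPKM in control liver, 21.1 in NASH and 38.3 in TH-treated NASH. Mia2, of the machinery that exports large cargo from the endoplasmic reticulum, was at 18.7 and 20.4 FPKM in control and NASH and at 4.02 in TH-treated NASH. It was 5.06-fold below NASH there (4.43 to 5.81), and the COPII coat gene Sec24d was 1.91-fold below (1.82 to 2.02).

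Outside the cell, 1 of 3 crosslinking genes was higher in NASH than in control and lower in TH-treated NASH than in NASH: Loxl1, a lysyl oxidase, at 0.489, 1.72 and 0.766 FPKM. The other two, Loxl3 (0.456, 0.960 and 1.47 FPKM) and Tgm2, a transglutaminase (37.7, 55.3 and 63.1 FPKM), were highest in TH-treated NASH, where both were at least 1.5-fold above control. The sum over all 6 crosslinking genes listed was 39.4, 59.5 and 65.8 FPKM. Among 9 proteoglycans and glycoproteins that bind fibrils, 5 were higher in NASH than in control and 1, Dpt, was lower in TH-treated NASH. Dpt, dermatopontin, was at 2.62, 9.99 and 5.41 FPKM, whereas Lum, lumican, at 2.22, 8.13 and 6.91 FPKM, stayed nearer its NASH level. The sum over all 13 listed was 234, 320 and 324 FPKM, while the median log2 difference of the 9 was −0.34 in TH-treated NASH against NASH. Of 9 basement membrane partners of type IV, 2 were higher in NASH than in control (Nid1 and Lamb3) and 2 lower in TH-treated NASH than in NASH (Lamb1 and Lamb3). Nid1, nidogen, which links laminin to type IV, was at 1.39, 4.25 and 2.60 FPKM, and Lamb3, a laminin chain, at 1.20, 2.45 and 1.24 FPKM.

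Of 7 genes of collagen breakdown and its inhibition, 5 were higher in NASH than in control and none lower. The list holds the inhibitors Timp1, Timp2 and Timp3 beside proteases, and Timp1 and Timp2 were among the 5. The sum over all 9 listed, proteases and inhibitors together, was 23.3 FPKM in control liver, 39.7 in NASH and 42.1 in TH-treated NASH. Mmp13, a collagenase of fibrillar collagen, was at 0.158, 1.31 and 0.156 FPKM, and Mmp2, a gelatinase, at 0.549, 2.24 and 0.765 FPKM. Timp1, their inhibitor, was at 0.270, 2.75 and 0.917 FPKM. These 3 were the ones lower in TH-treated NASH than in NASH. Mmp14, a membrane-bound collagenase that activates Mmp2, was instead higher there, at 13.5, 17.0 and 27.2 FPKM. Of 5 collagen receptor genes, 2 were higher in NASH than in control, Ddr1 and Lair1, and none of the 5 was at least 1.5-fold apart between TH-treated NASH and NASH.

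Markers of collagen-making cells were read beside the collagen genes. Of 11 stellate cell markers at 1 FPKM or more, 5 were higher in NASH and none lower, and 2 (Hgf and Pdgfrb) were lower in TH-treated NASH than in NASH. The summed level of all 12 was 137 FPKM in control liver, 214 in NASH and 181 in TH-treated NASH. Over the 11, the median log2 difference was 0.54 in NASH against control and −0.28 in TH-treated NASH against NASH. In TH-treated NASH against control it was 0.24. Lrat, the retinol-storing enzyme that defines these cells, was at 2.90, 5.43 and 5.11 FPKM and Rgs5 at 6.19, 13.1 and 13.4 FPKM. Both were near the NASH level in TH-treated NASH, unlike Hgf and Pdgfrb. Dcn, counted in both the stellate and the fibril-binding list, was at 57.2, 101 and 79.3 FPKM.

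Of 3 myofibroblast markers, 2 were higher in NASH and 1, Timp1, was lower in TH-treated NASH, with sums over all 6 of 7.47, 14.1 and 10.1 FPKM. Timp1 is also counted in the list of collagen breakdown. The contractile actin gene Acta2 was at 1.16, 2.57 and 1.83 FPKM. Of 4 portal fibroblast and mesothelial markers, 3 were higher in NASH and 2 (Dpt and Eln) lower in TH-treated NASH, with sums over all 9 of 4.61, 16.1 and 10.1 FPKM. Dpt is also counted in the fibril-binding list. Cholangiocyte markers had 3 of 5 higher in NASH and 3 lower in TH-treated NASH. Their sums over all 6 were 30.8, 102 and 47.2 FPKM, of which Spp1 alone gave 27.0, 95.8 and 44.3. Of 3 vascular markers 1, Vwf, was higher in NASH and none lower in TH-treated NASH, with sums over all 5 of 10.7, 17.0 and 15.3 FPKM. The part of these cell types in the collagen levels was not tested.

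All 6 macrophage markers were higher in NASH than in control. In TH-treated NASH none was lower than in NASH and 2, Clec4f and Cd5l, were higher, with sums of 97.6, 250 and 416 FPKM. Of 4 adipose tissue markers 1 reached 1 FPKM, Cfd, at 2.64 FPKM in control liver, 44.2 in NASH and 0.0849 in TH-treated NASH. Adipoq, Plin1 and Lep had no fragment in control. The part of fat-derived RNA in the collagen levels was not tested.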

How the data were processed

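RNA of mouse liver was enriched for polyadenylated transcripts and sequenced, with 1 library in each of 3 groups. Reads were processed with TopHat2 and HTSeq, per the submitters' processing notes; their versions, the genome build, the annotation and the strand setting are not stated in those sources. The deposited file from the authors is a table of FPKM per gene with each gene's length and coordinates. All gene starts and ends were compared with GENCODE M21 (GRCm38), and 41 of the 44 collagen genes had the same ones. FPKM times length came in whole multiples of 1 fragment (within 0.01 fragment) for 100% of values, so fragments were recovered from the deposited values and used for intervals, depth, shares of collagen fragments and TMM scaling.

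Differences are log2(FPKM + 1), which shrinks the differences of weakly expressed genes, and were counted from 1.5-fold among genes of at least 1 FPKM in any library. Folds are FPKM ratios with exact conditional binomial 95% intervals. With 1 library per group no test was possible. Every collagen gene of at least 1 FPKM was named, with the 3 highest of the rest and the 3 on either side of the limit. Further members below 1 FPKM (Col4a3, Col4a4, Col4a5, Col6a4, Col6a5, Col6a6, Col8a1, Col12a1, Col24a1, Col25a1 and those without fragments) were named after their values were seen. Of each of 17 other lists, up to 4 genes with the largest differences per comparison could be named. Of the 159 list entries, 6 were matched by gene ID. The members and lists were chosen with earlier results of these data known. Alternatives were other pseudocounts, filters, scalings, fold limits and class assignments. Python 3.11.15, numpy 2.4.6, pandas 2.3.3, scipy 1.17.1 and matplotlib 3.10.9 were used.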

Additional observations from a re-analysis of the deposited data

How the results depend on the processing

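No direction of a called collagen gene reversed under the alternatives run, but several counts moved by more than 1.5 times. With a pseudocount of 5 FPKM, 4 members instead of 8 were higher in NASH than in control, beside 3.10% of all genes. TH-treated NASH then had 0 higher and 5 lower members against NASH (2 and 10 as deposited), beside 4.33% and 3.88%. Against control it had 0 higher (2 as deposited), beside 6.67%. Counting from 2-fold gave 4 higher in NASH than in control, beside 3.24% of all genes. For TH-treated NASH it gave 0 higher and 5 lower against NASH, beside 2.70% and 2.75%. Against control it gave 0 higher, beside 5.40%. Among the 8 members of at least 5 FPKM, 5 were higher in NASH, beside 8.49% of all genes at that level. There TH-treated NASH had 0 higher against NASH, beside 9.93%, and 0 against control, beside 15.5%. Scaling to equal totals, median-of-ratios scaling and TMM scaling each left 1 higher member in TH-treated NASH against control, as Col15a1 went below the limit. The same scalings, and rescaling without the 50 most abundant genes, gave 3 lower members in that comparison instead of 2. Of the members not called lower as deposited, Col18a1 was nearest the limit, at −0.57. Every alternative kept the calls of 4 of 8, 5 of 12 and 2 of 4 called members in NASH against control, TH-treated NASH against NASH and TH-treated NASH against control. The 2 in the last were Col5a3 and Col27a1. In the first, Col6a1 lost its call with median-of-ratios scaling (0.58).

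Scaling moved the median of all genes by −0.18 (median-of-ratios) and −0.14 (TMM) in NASH against control, and by −0.14 and −0.15 in TH-treated NASH against control. The small uncalled log2 differences of Col4a1, Col5a1 and Col6a1 in the last comparison were then negative, at −0.10, −0.02 and −0.02 with TMM scaling, and that of Col4a1 was −0.01 with equal totals. Genes in general then split as 6.80% higher and 4.50% lower, and 7.06% and 3.95%, in the first, and as 10.9% and 10.7%, and 10.3% and 10.7%, in the last. After scaling to equal totals, TH-treated NASH against NASH had 6.50% higher and 12.0% lower. No paired analysis was possible because each group is 1 library. Depth limits the 11 members under 50 fragments in every library, whose intervals are wide.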
